A study of Homo sapiens with 4 samples.

Results

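FAM49B (CYRIB), its paralog FAM49A (CYRIA) and 8 subunits of the WAVE complex were followed in cells labelled OVCAR8, an ovarian cancer line, with and without knockdown of FAM49B. They were taken by symbol from the deposited table and are 10 of its 58735 genes. The subunits are CYFIP1, CYFIP2, NCKAP1, ABI1, ABI2, WASF1, WASF2 and BRK1. All 10 genes had a mean of at least 1 FPKM (reads relative to gene length and library depth, as scaled by the authors), the level required for the test, so none was lost to the filter.

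OVCAR8 is an established human cell line. The control group, shCON, received a GIPZ vector with a scrambled hairpin, and the group shFAM49B received GIPZ vectors with hairpins that target FAM49B, with 2 libraries in each group. Untransfected cells were not analysed here. The protocols describe lipofection of the plasmids and harvest after 36 h, while the design text calls the knockdown stable, and no hairpin sequence was at hand. Nothing in the labels tells whether libraries 1 and 2 of a group derive from different cultures. The p-values therefore reflect the spread between the libraries at hand, and that spread may be technical.

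As background, the WAVE complex turns a signal from the GTPase RAC1 into branched actin. Its subunits are a CYFIP protein, which binds active RAC1, a NCKAP1 scaffold, an ABI adaptor, a WASF protein, which activates the ARP2/3 actin nucleator, and the small subunit BRK1. FAM49A and FAM49B share a RAC1-binding domain with the CYFIP proteins, bind active RAC1 and restrain its signalling to the complex, which shapes lamellipodia at the edge of moving cells.

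The libraries held 15639559 to 16875353 reads, recovered from the deposited values. Mitochondrial rRNA took 0.447% and 0.376% of them in shCON and 1.09% and 1.07% in shFAM49B. Markers of stratified epithelium differed between the groups: all 10 fell in shFAM49B, and their summed level was 543 to 607 FPKM in shCON and 43.4 to 45.3 FPKM in shFAM49B. Of 9 ovarian carcinoma markers, 5 were under 1 FPKM in every library, among them PAX8 (at most 0.112 FPKM) and MUC16 (at most 0.00305 FPKM). Of the 4 tested, KRT18 and EPCAM fell (limma adjusted p = 0.0249 and 0.00224), EPCAM from 2.94 and 2.96 FPKM to 0.129 and 0.345 FPKM, while KRT8 (37.4 to 41.7 FPKM) and WT1 did not pass. The labelled cell type is thus not borne out by PAX8 or MUC16, and whether all 4 libraries hold the same kind of cell was not tested. Summed markers of leukocytes were at most 1.81 FPKM and of endothelium at most 0.501 FPKM, with PTPRC at 0 in 3 of the 4 libraries. Summed fibroblast markers were 6.35 to 6.98 FPKM in all libraries, most of it from COL1A1 alone (5.36 to 6.55 FPKM). Every other fibroblast marker stayed at or below 0.618 FPKM. In bulk RNA a change in the mix of cells and a change of RNA per cell cannot be told apart, and the part of the epithelial and mitochondrial differences in the values below was not tested.

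FAM49B, the gene targeted by the hairpins, fell to 13.9% of its control level, and FAM49A did not rise beside it. FAM49B (ENSG00000153310, chromosome 8, 129839593 to 130017129, minus strand, GRCh38) measured 7.41 and 7.60 FPKM in shCON and 1.06 and 1.02 FPKM in shFAM49B. The groups lie far apart, and the replicates of each are close. These levels rest on 1141 and 1284 reads in shCON and on 149 and 139 reads in shFAM49B. On the scale of log2(FPKM + 1), used for every log2 value here, FAM49B differed by -2.06 (SE 0.0807; adjusted p = 0.00054 by limma). Of the 11400 protein-coding genes tested, 33 had a lower log2 fold change than the targeted gene itself. The 5 protein-coding genes whose profile over the 4 libraries was closest to that of FAM49B, by Euclidean distance of centred log2(FPKM + 1), were PKP3, PKP1, TRIM29, THBS1 and DKK1, at distances of 0.0605 to 0.169. In FPKM these 5 genes fell 8.89-fold (PKP1) to 18.4-fold (THBS1), against 7.21-fold for FAM49B. The likeness is thus one of log2(FPKM + 1) values and not of folds. PKP3 and PKP1 encode plakophilins of desmosomes, THBS1 a matrix glycoprotein and DKK1 a secreted Wnt antagonist.

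FAM49A (ENSG00000197872, chromosome 2, 16549459 to 16666331, minus strand) measured 2.96 and 2.79 FPKM in shCON and 2.38 and 2.22 FPKM in shFAM49B. Both shFAM49B values lie below both shCON values. The difference of -0.23 (SE 0.0927, 95% interval -0.47 to 0.0028) did not pass (limma adjusted p = 0.0996). It did pass as TPM (-0.51, adjusted p = 0.0223), relative to recovered reads (-0.39, adjusted p = 0.0248) and with voom on those reads (-0.39, adjusted p = 0.0211). The summed level of the pair was 10.4 FPKM in each shCON library and 3.45 and 3.24 FPKM in shFAM49B, 3.11-fold lower. FAM49A made up 28.6% and 26.8% of that sum in shCON and 69.1% and 68.6% in shFAM49B. That sum holds FAM49B, the targeted gene, whose fall raises the FAM49A share by itself, while FAM49A did not rise. Per kilobase of principal transcript, an alternative added after values had been seen, the FAM49A share was 16.2% and 15.1% in shCON and 52.1% and 51.4% in shFAM49B. For this, all reads of a gene were divided by its principal length. Reads from its other exons stay in and can raise the values. On either length FAM49A was the minor form in shCON, whereas in shFAM49B it was the larger part on the deposited length and about equal to FAM49B on the principal one. With 2 libraries against 2 an exact 2-sided permutation test cannot go below p = 0.333, the value for this share.

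**Figure D1:**
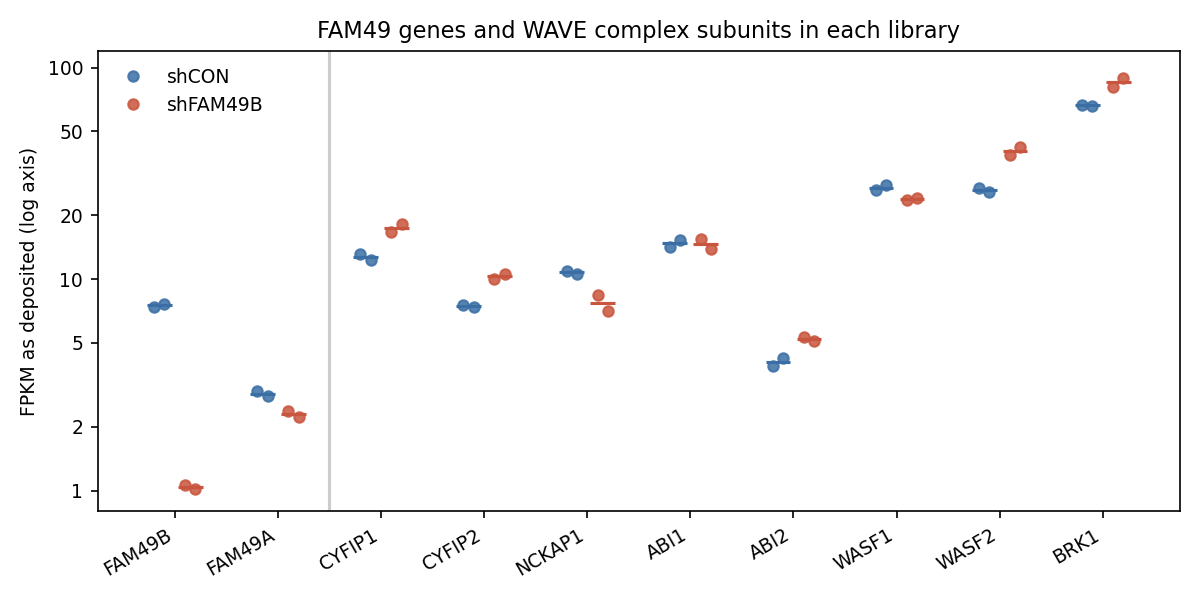
Deposited FPKM (log axis) of the FAM49 genes (left of the grey line) and 8 WAVE subunits in the 2 shCON (blue) and 2 shFAM49B (red) libraries, each point a library and each bar a group mean. FAM49B drops from 7.41 and 7.60 to 1.06 and 1.02 FPKM, WASF2, BRK1, CYFIP1, CYFIP2 and ABI2 lie higher in shFAM49B, NCKAP1 lies lower, and ABI1 overlaps.

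Among the 8 WAVE subunits, 5 rose, 1 fell and 2 did not pass, at a limma adjusted p under 0.05 over all genes. Of all tested genes 42.2% passed, 26.4% higher and 15.8% lower in shFAM49B. The median log2 fold change of the 8 subunits was 0.33, beside 0.05 over all genes tested. It was 0.11 beside -0.17 as TPM, 0.12 beside -0.13 relative to recovered reads and 0.15 beside 0.019 after quantile normalization. The median over all genes depends on their level. With a filter at 5 FPKM it was 0.13, beside 0.35 for the 7 subunits that pass. With FAM49B included, 5 of the 10 members rose and 2 fell as deposited. For 9 of the 10 members both libraries of 1 group lay above both of the other, which held for 74.7% of all tested genes. The member count depends on single libraries. Without shCON replicate 1, 3 members rose and 1 fell (15.4% and 7.46% of all genes), and without shCON replicate 2, 4 rose and 1 fell (17% and 8.29%). Without shFAM49B replicate 1, 4 rose and 2 fell (18.1% and 11.1%), and without shFAM49B replicate 2, 3 rose and 1 fell (13.8% and 9.28%). It also depends on the scaling. As TPM, where all tested genes shifted by a median of -0.24, 2 members rose and 4 fell (11.6% and 31.7% of all genes), and relative to recovered reads, with a shift of -0.19, 3 rose and 4 fell (12.5% and 30.3%). With voom 5 rose and 4 fell (25.3% and 25%), and with a replicate block 5 rose and 2 fell (24.9% and 14.8%). Without a filter on low values 4 rose and 1 fell (6.67% and 4.21%), and with a filter at 5 FPKM, which 7 members pass, 4 rose and 1 fell (41.1% and 17%).

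The CYFIP subunits, the part of the complex that contacts RAC1, rose together. CYFIP1 (chromosome 15, 22867052 to 22981063, minus strand) measured 13.1 and 12.3 FPKM in shCON and 16.7 and 18.3 FPKM in shFAM49B. Its groups do not overlap, and the higher group is shFAM49B. The rise was 1.38-fold (log2 0.43, SE 0.0723, limma adjusted p = 0.00857), and it just missed the threshold as TPM (log2 0.21, adjusted p = 0.051). CYFIP2 (chromosome 5, 157266079 to 157395595, plus strand) measured 7.50 and 7.36 FPKM in shCON and 10.0 and 10.6 FPKM in shFAM49B. It rose 1.39-fold (log2 0.43, SE 0.0636, limma adjusted p = 0.00625) and passed under all 4 other scalings. CYFIP2 made up 36.3% and 37.5% of the CYFIP sum in shCON and 37.5% and 36.8% in shFAM49B, so the balance of the pair overlapped between groups (difference 0.229 percentage points, exact permutation p = 0.667). The sign of that difference turned without shCON replicate 1 (-0.347 points) and without shFAM49B replicate 1 (-0.17 points). The CYFIP sum stood at 1.99 and 1.89 times the FAM49 sum in shCON and at 7.76 and 8.92 times in shFAM49B. That ratio of transcripts, on deposited gene lengths, was 4.30-fold higher in shFAM49B, and 5.71-fold on principal transcripts. Its divisor holds FAM49B, the targeted gene, whose fall raises the ratio by itself. As deposited, the FAM49 sum was 3.11-fold lower in shFAM49B and the CYFIP sum 1.38-fold higher. This ratio and the other ratios between different genes below were chosen after values had been seen.

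NCKAP1, the scaffold that pairs with CYFIP, was the only WAVE subunit that fell as deposited. NCKAP1 (chromosome 2, 182909115 to 183038858, minus strand) measured 10.9 and 10.6 FPKM in shCON and 8.38 and 7.04 FPKM in shFAM49B. The shFAM49B libraries lie below shCON and differ from each other more than the shCON libraries do, on 2894 and 2374 reads. The fall was 1.39-fold (log2 -0.43, SE 0.0906, limma adjusted p = 0.016). NCKAP1 passed under all 4 other scalings (log2 -0.48 to -0.71) but not when low genes were kept (adjusted p = 0.0674), without shCON replicate 1 (0.0819), without shCON replicate 2 (0.0655) or without shFAM49B replicate 2 (log2 -0.32, 0.0527). Its blood-cell paralog NCKAP1L stayed at or below 0.0883 FPKM. The CYFIP sum was 1.90 and 1.85 times NCKAP1 in shCON and 3.19 and 4.10 times in shFAM49B, and BRK1 was 6.08 and 6.24 times NCKAP1 in shCON and 9.66 and 12.6 times in shFAM49B. Neither ratio overlaps between the groups, which follows from how they were chosen. Each divides genes that were higher in shFAM49B without overlap by a gene that was lower without overlap. Per kilobase of principal transcript the CYFIP sum was below NCKAP1 in shCON, at 0.786 and 0.773 times, and above it in shFAM49B, at 1.33 and 1.70 times, and BRK1 was 1.35 and 1.38 times NCKAP1 in shCON and 2.14 and 2.80 times in shFAM49B. Reads outside the principal transcript stay in these values, and for NCKAP1 the deposited length is 4.51 times the principal one. Whether the CYFIP sum lies below or above NCKAP1 is therefore not settled.

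Of the ABI adaptors, which link the complex to ABL kinases, ABI2 rose as deposited and ABI1 did not pass. ABI1 (chromosome 10, 26746593 to 26861087, minus strand) measured 14.2 and 15.4 FPKM in shCON and 15.4 and 13.9 FPKM in shFAM49B. Its groups overlap, with a log2 difference of -0.01 (SE 0.0767, 95% interval -0.20 to 0.18, limma adjusted p = 0.921). ABI2 (chromosome 2, 203328219 to 203447723, plus strand) measured 3.89 and 4.25 FPKM in shCON and 5.34 and 5.10 FPKM in shFAM49B, a 1.28-fold rise (log2 0.30, SE 0.077, limma adjusted p = 0.0308). The ABI2 call was lost when low genes were kept (adjusted p = 0.0883), as TPM, relative to recovered reads and with median ratios over tested genes (adjusted p = 0.379, 0.312 and 0.0592), and without shCON replicate 1 (0.162), shCON replicate 2 (0.0797), shFAM49B replicate 1 (0.11) or shFAM49B replicate 2 (0.0864). ABI2 shares 8870 exonic bases, 38.0% of its exonic length, with RAPH1 on the opposite strand, and RAPH1, which encodes the actin regulator lamellipodin, measured 1.10 and 1.31 FPKM in shCON and 1.74 and 1.55 FPKM in shFAM49B (log2 0.26, adjusted p = 0.168). Whether counting used strand was not stated, so reads of ABI2 and RAPH1 in those bases cannot be told apart. ABI2 made up 21.5% and 21.7% of the ABI1 and ABI2 sum in shCON and 25.7% and 26.8% in shFAM49B. These shares do not overlap between the groups. The exact permutation p of 0.333 is the lowest possible here, so that test cannot decide on a difference between the adaptors. ABI3, the paralog of blood cells, stayed at or below 0.132 FPKM.

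**Figure D2:**
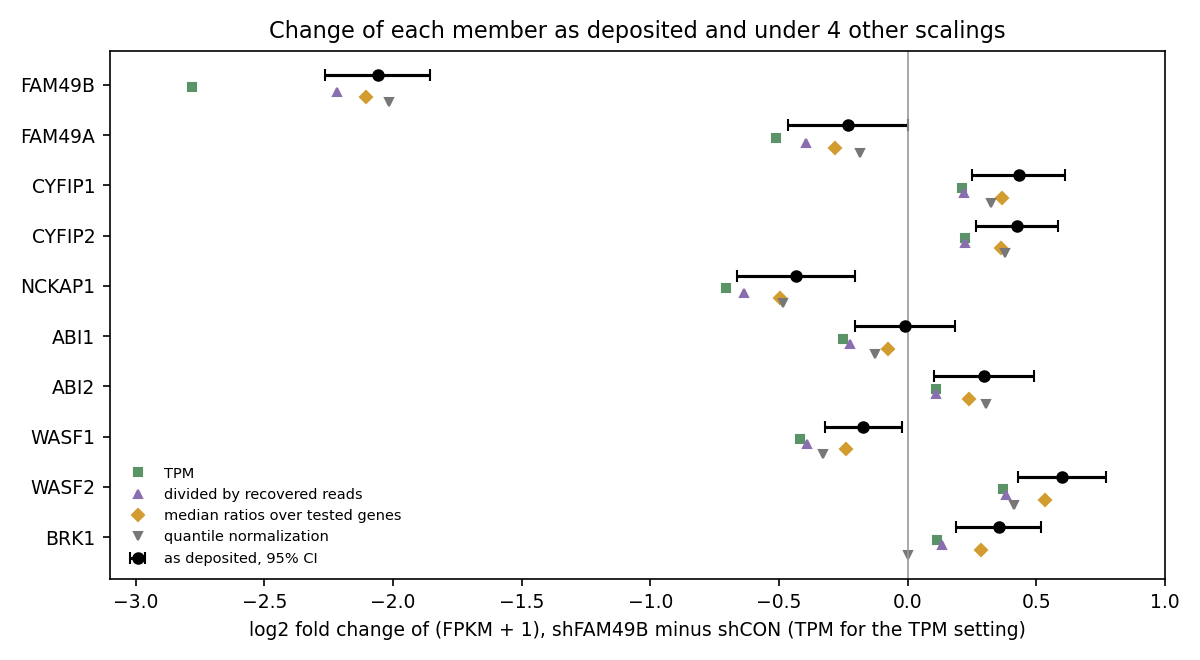
Log2 fold change of (FPKM + 1), shFAM49B minus shCON, for each member as deposited (black, with the 95% interval from limma) and under 4 other scalings (coloured symbols). WASF2, CYFIP1, CYFIP2 and ABI2 stay to the right of 0 under each scaling. NCKAP1, WASF1, FAM49A and FAM49B stay to the left, as does ABI1 (-0.01 as deposited). BRK1 reaches 0 after quantile normalization. A side of 0 does not mean that a change passed.

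Of the WASF proteins, which activate ARP2/3, WASF2 and WASF3 rose and WASF1 did not pass as deposited. WASF2 (chromosome 1, 27404226 to 27490158, minus strand), the widely expressed form, measured 26.9 and 25.7 FPKM in shCON and 38.5 and 42.2 FPKM in shFAM49B. It had the largest rise of the 10 members, 1.54-fold (log2 0.60, SE 0.0681, limma adjusted p = 0.00326), passed under every alternative run, and had a log2 fold change of 0.37 as TPM. WASF1 (chromosome 6, 110099819 to 110180004, minus strand), known best from brain, measured 26.3 and 27.9 FPKM in shCON and 23.7 and 24.1 FPKM in shFAM49B. The groups of WASF1 do not overlap, but the difference of -0.17 (SE 0.0592, 95% interval -0.32 to -0.02) did not pass as deposited (limma adjusted p = 0.0657). It passed under the 4 other scalings (log2 -0.24 to -0.42, adjusted p = 0.0067 to 0.0268) and with voom (-0.25, adjusted p = 0.00563). WASF1 and WASF2 stood at nearly equal levels in shCON, where WASF2 was 1.02 and 0.92 times WASF1, and WASF2 was 1.63 and 1.75 times WASF1 in shFAM49B. WASF1 accordingly made up 49.4% and 52.1% of the pair in shCON and 38.0% and 36.4% in shFAM49B, a difference of -13.5 percentage points (exact permutation p = 0.333, the lowest this design allows). WASF3, the other paralog, rose 1.39-fold, from 5.01 and 5.50 FPKM to 7.06 and 7.52 FPKM (log2 0.41, SE 0.0761, limma adjusted p = 0.0115). For WASF3 the adjusted p was 0.0889 as TPM and 0.0751 when divided by reads. The call was also lost when shCON replicate 1 (0.072) or shFAM49B replicate 2 (0.065) was left out.

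BRK1, the small subunit that stabilises the complex, was the most abundant member. BRK1 (chromosome 3, 10115592 to 10127190, plus strand) measured 66.3 and 66.1 FPKM in shCON and 81.0 and 89.0 FPKM in shFAM49B, a 1.28-fold rise (log2 0.35, SE 0.0653, limma adjusted p = 0.0111). The shCON libraries nearly coincide, and both shFAM49B libraries lie above them. The rise of BRK1 depended on the scaling: it was lost as TPM (log2 0.11, adjusted p = 0.139) and relative to recovered reads (0.13, adjusted p = 0.108), and after quantile normalization the difference was -9.53e-05 (adjusted p = 0.999). It was also lost without shCON replicate 1 (adjusted p = 0.0503) and without shFAM49B replicate 2 (0.0571).

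**Figure D3:**
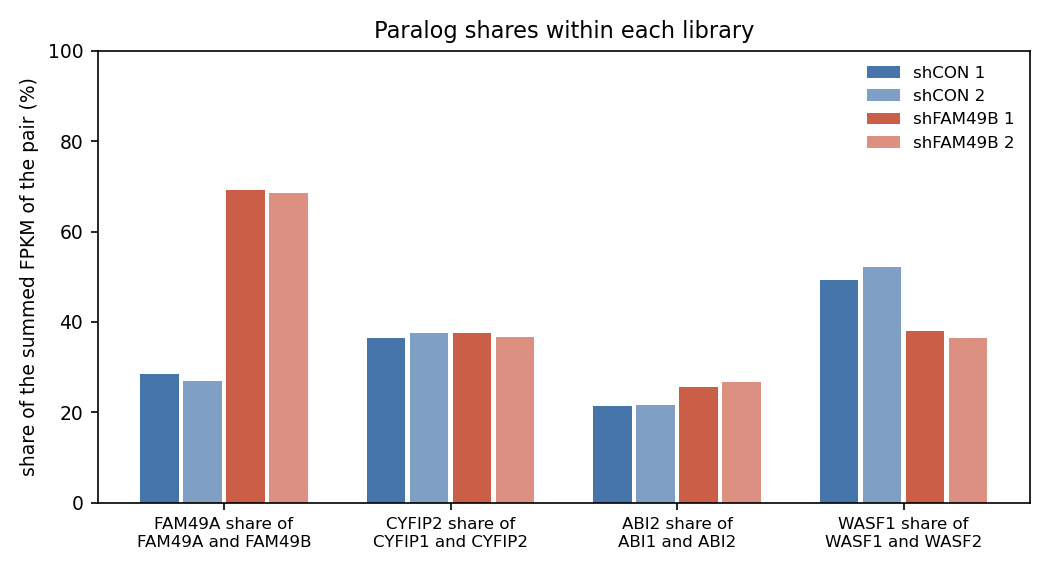
Share of the summed FPKM of each paralog pair held by the named gene, in percent, 1 bar per library (blue shCON, red shFAM49B). FAM49A goes from 28.6% and 26.8% to 69.1% and 68.6%, WASF1 from 49.4% and 52.1% to 38.0% and 36.4%, and the CYFIP2 share overlaps between groups.

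Summed over all paralogs of a position, the CYFIP, WASF and BRK1 positions were higher in shFAM49B and the NCKAP position lower as deposited. The CYFIP position went from 20.1 ± 0.719 to 27.8 ± 1.499 FPKM (SD, n = 2). The WASF position, with WASF3, went from 58.6 ± 0.637 to 71.6 ± 3.26 FPKM, and the NCKAP position from 10.8 ± 0.219 to 7.77 ± 0.90 FPKM. The ABI position overlapped between the groups, at 18.96 ± 1.10 and 19.97 ± 1.21 FPKM. Apart from the ABI position these sums separate the groups by more than the spread between replicates, each with an exact permutation p of 0.333, the smallest possible here. Of all single tested genes, 74.7% had both libraries of 1 group above both of the other, so such a separation is common in these data. Relative to recovered reads, an alternative added after values had been seen, the WASF position was 1.04-fold, the BRK1 position 1.10-fold and the CYFIP position 1.18-fold higher, in place of 1.22-fold, 1.28-fold and 1.38-fold. The NCKAP position was then 0.615 times its level in shCON, in place of 0.718 times, and the ABI difference changed sign, from 1.005 to -2.04 FPKM.

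In shCON the order of levels ran from BRK1 (66.2 FPKM) over WASF1 (27.1) and WASF2 (26.3), whose libraries overlap, to ABI1 (14.8), CYFIP1 (12.7), NCKAP1 (10.7), FAM49B (7.51) and CYFIP2 (7.43), which also overlap, then ABI2 (4.07) and FAM49A (2.87). In shFAM49B WASF2 (40.4 FPKM) stood above WASF1 (23.9) without overlap, CYFIP1 (17.5) above ABI1 (14.7), CYFIP2 (10.3) above NCKAP1 (7.71), and FAM49B (1.04) last. This order depends on the length by which reads were divided. The deposited length equals the union of all annotated exons, 22520 bases for NCKAP1 and 23331 for ABI2, against 4989 and 6484 bases for the principal transcript in GENCODE release 29. Per kilobase of principal transcript NCKAP1 measured 48.5 ± 0.951 FPKM in shCON, next below BRK1, and 34.8 ± 4.27 FPKM in shFAM49B, and ABI1 43.1 ± 2.34 and 42.8 ± 3.10 FPKM. These values divide all reads of a gene by the principal length, so they can be too high where reads fall on other exons. The deposited length is 4.51 times the principal one for NCKAP1 and 3.60 times for ABI2, so the rank of NCKAP1 is not settled. On that length FAM49B (18.05 FPKM) and CYFIP2 (18.3 FPKM) were again alike in shCON, close to CYFIP1 (19.5 FPKM). The ratio of FPKM between groups is the same on either length for any 1 gene, but log2(FPKM + 1) values are not, and those given here are on the deposited length.

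**Figure D4:**
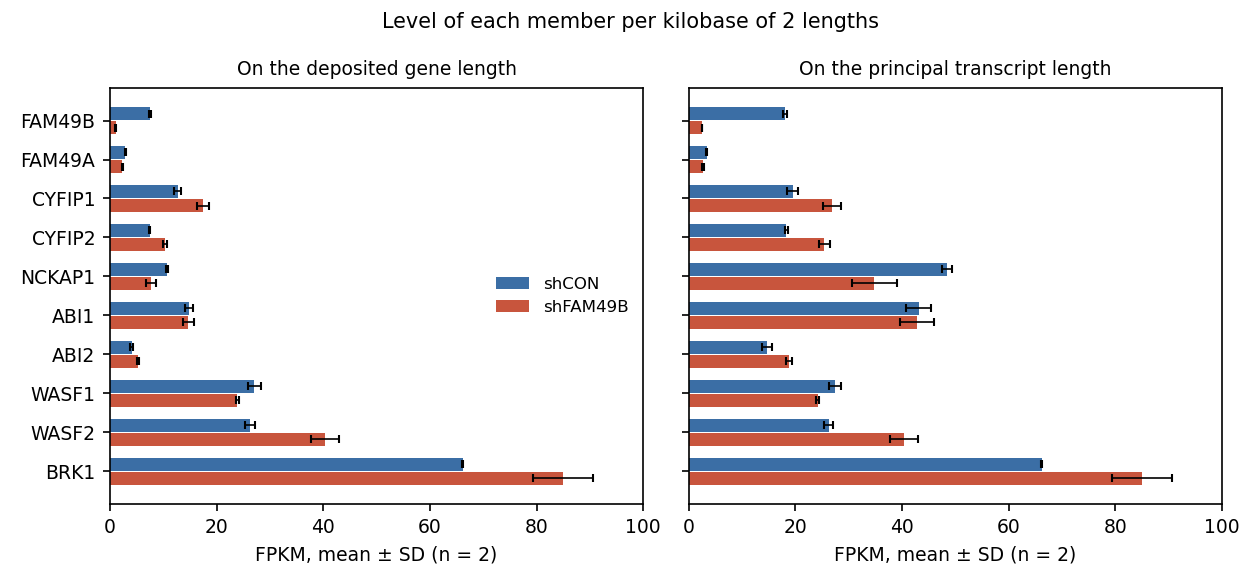
Mean FPKM ± SD (n = 2 libraries) of each member in shCON (blue) and shFAM49B (red), per kilobase of the deposited gene length (left) and of the principal transcript (right). NCKAP1 stands at 10.7 FPKM in shCON on the left and at 48.5 FPKM on the right, whereas BRK1 and WASF2 have the same bars in both. On the right, reads from other exons of the gene are kept, so values can be too high.

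Members overlap other expressed genes to different degrees. CYFIP1 shares 1333 exonic bases (12.8%) with NIPA2 on the opposite strand, which did not pass (log2 -0.14, limma adjusted p = 0.269). ABI1 shares 4.88% with PDSS1 (log2 0.09, adjusted p = 0.475), and CYFIP2 shares 0.591% with ADAM19, which rose from 4.01 to 5.66 FPKM (adjusted p = 0.0127). The 3 pseudogenes that carry a member's symbol, ABI1P1, BRK1P2 and WASF1P1, stayed at or below 0.0582 FPKM.

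Start regions of 2 members that rose and of the subunit that fell are shown to compare their letters. Of the 10 members, 7 have a window in the RefSeq promoter table (GRCh38.p14), and FAM49A, FAM49B and WASF2 are not among them. The table's start lies downstream of the deposited gene start, by 83 bases for BRK1, 44 for CYFIP2 and 401 for NCKAP1, so these windows lie partly or wholly inside the deposited gene. The 250 bases before the table's start are given 5′ to 3′ on the gene's strand for BRK1 (chr3:10115425-10115674, plus) and CYFIP2 (the first of its 2 windows, chr5:157265873-157266122, plus), which rose, and for NCKAP1 (chr2:183038458-183038707, minus), which fell, with the GC box GGGCGG in either orientation in capitals.
BRK1: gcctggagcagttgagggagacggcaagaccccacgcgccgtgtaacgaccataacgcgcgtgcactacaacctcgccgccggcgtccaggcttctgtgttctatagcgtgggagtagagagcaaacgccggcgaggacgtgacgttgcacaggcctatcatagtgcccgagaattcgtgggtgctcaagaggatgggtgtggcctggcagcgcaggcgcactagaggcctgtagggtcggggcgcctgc
CYFIP2: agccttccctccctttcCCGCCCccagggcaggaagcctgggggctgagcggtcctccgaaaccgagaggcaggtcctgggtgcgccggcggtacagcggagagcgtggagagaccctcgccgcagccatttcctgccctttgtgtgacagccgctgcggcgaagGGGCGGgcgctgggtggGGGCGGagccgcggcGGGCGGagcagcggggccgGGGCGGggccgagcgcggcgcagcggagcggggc
NCKAP1: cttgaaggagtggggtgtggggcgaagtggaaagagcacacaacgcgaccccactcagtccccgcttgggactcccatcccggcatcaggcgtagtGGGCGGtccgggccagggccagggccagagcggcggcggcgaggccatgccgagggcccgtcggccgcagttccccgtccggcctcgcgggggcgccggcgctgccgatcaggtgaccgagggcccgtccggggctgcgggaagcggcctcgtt
CYFIP2 holds 5 GC boxes in this window, NCKAP1 1 and BRK1 0, while the second CYFIP2 window holds 0. Of the windows not shown, ABI2 holds 2, WASF1 3, ABI1 1 and the 4 of CYFIP1 0 to 2. At least 1 box stands in 42.6% of 35116 windows of the same length. The CCAAT box (CCAAT, in 32% of windows), the AP-1 site (TGANTCA, 6.57%) and the E-box (CACGTG, 6.34%), searched on both strands, have 0 matches in these 3 windows. GC content was 63.6% for BRK1, 76.4% for CYFIP2 and 74% for NCKAP1, beside a median of 58%. A match is a description of letters and not of binding.

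Around the complex, 7 lists of pathway genes were read from the same fit, in which 42.2% of all genes passed (26.4% higher and 15.8% lower), against 11.6% higher and 31.7% lower as TPM. RAC3, a RAC1 paralog known from the nervous system, rose 1.72-fold, from 48.8 and 48.7 FPKM to 81.3 and 86.2 FPKM (log2 0.77, SE 0.0567, limma adjusted p = 0.00167), and passed under each of the 4 other scalings. RAC1 itself, the more abundant form, measured 94.9 and 95.3 FPKM in shCON and 108 and 110.3 FPKM in shFAM49B (log2 0.20, adjusted p = 0.031). The direction of RAC1 depended on the scaling: it was -0.045 as TPM (adjusted p = 0.446), -0.025 relative to recovered reads (0.666) and -0.20 after quantile normalization (0.019). Without shCON replicate 1, shCON replicate 2, shFAM49B replicate 1 or shFAM49B replicate 2 the RAC1 call was lost (adjusted p = 0.102, 0.0948, 0.0981 and 0.138). It was also lost with a replicate block (0.0511), which left 2 GTPases that rose, with median ratios (0.0902), with voom (0.0849) and without a filter (0.0659). Of 6 tested genes among 9 RAC, CDC42 and related GTPases, 3 rose and 3 did not pass, with a median log2 fold change of 0.16 as deposited and -0.08 as TPM. RHOV rose to 4.86 ± 0.272 from 3.54 ± 0.605 FPKM (log2 0.37, adjusted p = 0.0473), a call lost under all 4 other scalings (0.0547 to 0.257), with voom (0.0903), without a filter (0.15) and when shCON replicate 2 (0.186) or either shFAM49B library (0.172 for 1 and 0.118 for 2) was left out.

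Of 28 RAC activators 21 were tested, of which 4 rose, 3 fell and 14 did not pass, with a median of -0.06. With a replicate block 1 fell. PREX1, an exchange factor that responds to phosphoinositide and Gβγ signals, rose 1.76-fold, from 7.26 and 7.34 FPKM to 12.1 and 13.6 FPKM (log2 0.74, SE 0.076, limma adjusted p = 0.00272), and passed under each other scaling. The exchange factor DOCK1 rose 1.248-fold (log2 0.29, adjusted p = 0.0139). The DOCK1 call was lost without shCON replicate 1 (0.0629), shCON replicate 2 (0.0754) or shFAM49B replicate 2 (0.0671). DOCK1 did not pass as TPM (0.337) or relative to recovered reads (0.235), and as TPM 1 activator rose while 10 fell.

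Inhibitors of RAC, the GAPs that switch it off and the GDIs that hold it in the cytosol, had 9 of 16 genes tested, of which 3 rose, 1 fell and 5 did not pass (median 0.19, and -0.05 as TPM). ARHGDIA, the main GDI, rose 1.53-fold, from 38.3 and 40.6 FPKM to 58.5 and 62.3 FPKM (log2 0.60, SE 0.0629, limma adjusted p = 0.00281), and SRGAP2 rose 1.42-fold (log2 0.46, adjusted p = 0.00538). Both passed under each other scaling. ARHGAP17 fell 1.21-fold (log2 -0.24, adjusted p = 0.0378), a call lost with a replicate block (0.0508), without a filter (0.0834) and without shCON replicate 1 (0.106), shCON replicate 2 (0.188), shFAM49B replicate 1 (0.12) or shFAM49B replicate 2 (0.099).

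RAC effectors other than WAVE had 13 of 17 genes tested, of which 5 rose, 2 fell and 6 did not pass (median 0.17, and -0.05 as TPM, where 3 rose and 6 fell). With a replicate block 1 fell. The kinase PAK4 rose 1.51-fold, from 12.1 and 12.2 FPKM to 16.9 and 19.8 FPKM (log2 0.55, SE 0.0854, limma adjusted p = 0.00689). BAIAP2L1, a membrane-bending I-BAR protein, and the scaffold IQGAP3 each rose 1.37-fold (log2 0.42 for both, adjusted p = 0.0058 and 0.00469). These 3 genes passed under each other scaling.

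Among 23 other activators of ARP2/3 and regulators of WAVE 22 were tested, of which 5 rose, 1 fell and 16 did not pass (median 0.15, and -0.05 as TPM, where 2 rose and 7 fell). With a replicate block 3 rose and 2 fell. EVL, an Ena/VASP protein that extends actin filaments, rose 1.84-fold, from 4.203 and 4.526 FPKM to 7.95 and 8.08 FPKM (log2 0.75, SE 0.0694, limma adjusted p = 0.00227). WIPF1, the partner of WASP and N-WASP, rose 1.53-fold (log2 0.50, adjusted p = 0.00518), and both passed under each other scaling. WASHC1, of the endosomal WASH complex, rose 1.47-fold (log2 0.48, adjusted p = 0.0132), a call lost as TPM (0.0871), relative to recovered reads (0.0755), without a filter (0.0616) and when shCON replicate 1 (0.0613) or either shFAM49B library (0.0674 for 1 and 0.0555 for 2) was left out.

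The ARP2/3 complex, on which WASF proteins act, had 9 of 10 subunit genes tested, and 2 rose, 1 fell and 6 did not pass (median 0.12, and -0.11 as TPM). ACTR3B rose from 2.77 ± 0.218 to 4.03 ± 0.000419 FPKM (log2 0.42, adjusted p = 0.0154) and ARPC1A from 18.9 ± 0.0425 to 24.7 ± 3.70 FPKM (log2 0.36, adjusted p = 0.0416). ARPC5L fell from 15.05 ± 0.962 to 12.03 ± 0.0256 FPKM (log2 -0.30, adjusted p = 0.0201). Without a filter on low values none of these 3 passed (0.0604, 0.136 and 0.0577). Neither rise passed as TPM (0.09 and 0.308) or relative to recovered reads (0.0788 and 0.266), and ARPC1A passed under none of the 4 other scalings (0.0699 to 0.308). Each of the 3 calls was lost when shFAM49B replicate 2 was left out (0.0694, 0.0939 and 0.0841), ACTR3B also without shCON replicate 1 (0.0905) or shFAM49B replicate 1 (0.0613), ARPC1A without shCON replicate 1 (0.134) or shCON replicate 2 (0.128), and ARPC5L without shCON replicate 2 (0.101) or shFAM49B replicate 1 (0.0733).

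**Figure D5:**
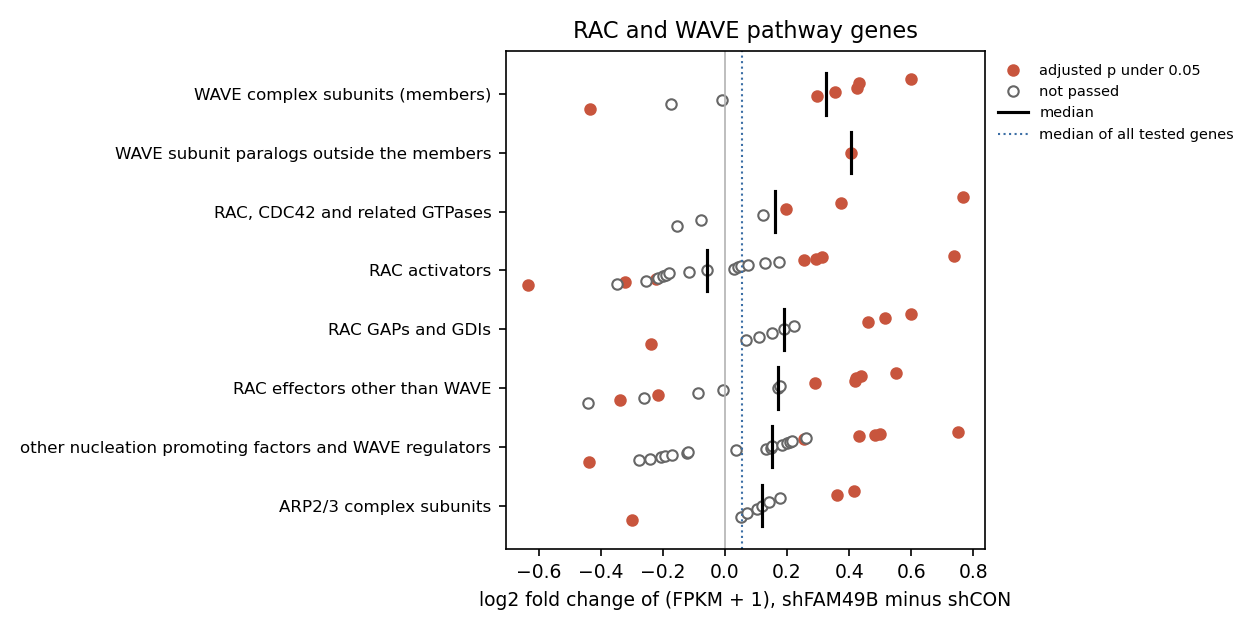
Log2 fold change of (FPKM + 1), shFAM49B minus shCON, of each tested gene of the 8 WAVE subunits and of 7 pathway lists (filled where the limma adjusted p is under 0.05, black bar for the median, dotted line for the median of all tested genes). The WAVE subunits have a median of 0.33, RAC activators -0.06, and every list but the single tested WASF3 holds genes that did not pass.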

How the data were processed

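The deposited table gives FPKM per gene for 4 RNA-seq libraries (2 shCON, 2 shFAM49B), per the file headers. GRCm38 and mm10, which are mouse builds, appear in the submitters' processing notes, but all 58735 identifiers are human genes of GENCODE release 29, 58724 match it in start and end and 58724 in exon-union length, so coordinates are on GRCh38. No aligner or counter is given in the sources used here. FPKM times length was a whole multiple of 1 read's value for 100% of values above 0 (tolerance 0.001), which gave the reads. The denominators the authors used were 1.08 and 1.10 times the reads in shCON and 0.941 and 0.919 times in shFAM49B.

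Log2(FPKM + 1) was fitted with limma 3.58.1 in R 4.3.3 (trend, 2-sided, Benjamini-Hochberg over all genes, threshold 0.05) for the 13775 genes averaging 1 FPKM or more. Residual degrees of freedom were 2, with 3.32 from the prior. The added 1 FPKM shrinks log2 fold changes of low genes, and folds are ratios of mean FPKM. In a 1 kb gene a single read is worth 0.0541 to 0.0668 FPKM. Replicates differed by a chi-square of 3.90 and 3.48 per gene (over genes reaching 20 reads in a pair). Each library was treated as 1 sample. The chi-square does not tell whether the libraries of a group come from different cultures. The procedure was also run on simulated reads in which a small part of the genes changed, all upward, with the same scaling in both groups. That setting differs from these data, so the run does not bear on the calls given here. Members and lists were chosen with earlier results of these data known. Named genes are all members, the up to 3 genes of each list with the smallest p, the 5 genes closest to FAM49B in profile, and overlapping genes; 1 gene so named is not reported here. The alternatives were 2 pseudocounts (0.1 and 5), no filter or a filter at 5 FPKM, TPM, division by recovered reads, median ratios over tested genes, quantile normalization, voom with TMM factors on recovered reads, a replicate block, and each library left out. Principal transcript lengths for shares and ratios, and recovered reads for summed positions, were added after seeing the data. On principal lengths, all reads of a gene were divided by the length of its principal transcript, without removing reads from other exons.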

Additional observations from a re-analysis of the deposited data

How the results depend on the processing

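Of 137 values of single members under the alternatives, 109 kept their direction and their side of the threshold, 17 lost a call, 8 gained one and 3 changed sign: ABI1, never called, without shCON replicate 2 (0.041) and without shFAM49B replicate 2 (0.0582; its range over left-out libraries began at -0.0804), and BRK1 after quantile normalization (-9.53e-05). RAC1 also changed sign as TPM (-0.045), relative to recovered reads (-0.025) and after quantile normalization (-0.20). Against 3642 genes higher and 2170 lower over the whole table, there were 2185 and 1378 without a filter, 1322 lower with a filter at 5 FPKM, 1597 and 4362 as TPM, 1722 and 4173 relative to recovered reads, and 3444 lower with voom. Leaving out 1 library gave 1897 to 2495 higher and 1027 to 1529 lower, where a lone library is assumed to vary like the other group. Of the members, against 5 that rose and 2 that fell, 1 fell without a filter and 1 with a filter at 5 FPKM (which drops FAM49B, FAM49A and ABI2), 2 rose and 4 fell as TPM, 3 rose and 4 fell relative to recovered reads, 4 fell with voom, and leaving out 1 library gave 3 to 4 that rose and 1 to 2 that fell. The difference in the CYFIP2 share ran from -0.347 to 0.804 percentage points when 1 library was left out, with -0.17 without shFAM49B replicate 1. On principal transcript lengths, added after seeing the data, the FAM49A share differed by 36.1 in place of 41.2 percentage points. Relative to recovered reads, also added then, the ABI position differed by -2.04 in place of 1.005 FPKM. Values relative to recovered reads differ from the deposited ones only by the authors' denominators. Those were 1.08 and 1.10 times the reads in shCON and 0.941 and 0.919 times in shFAM49B. Dividing by reads instead thus lowers FPKM in shFAM49B against shCON for every gene. The cause of the other changes was not tested, except that fewer samples or genes entered some fits. With the replicate number as a block, the table had 3429 genes higher and 2036 lower, and 5 members rose and 2 fell. Same-numbered libraries did not deviate together over all tested genes (r = -0.0132 over 13775 genes). That value does not tell whether a part of the genes shares a pairing. The main fit used the numbers only to name samples. Precision is limited by 2 libraries per group.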

Other observations

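Genes of the pathway that fell under the level required for a test differed widely in reads. CDC42, a GTPase that acts through WASP and N-WASP, was listed at 0.264 and 0.301 FPKM in shCON and at 1.02 and 0.52 FPKM in shFAM49B, on 16, 20, 56 and 28 reads, although it is known as a widely expressed gene. ARPC1B, a subunit of ARP2/3, was listed at 0.298 to 0.416 FPKM over the 4 libraries, on 22 to 28 reads, beside 18.9 FPKM in shCON for its paralog ARPC1A. These genes were picked out after their values had been seen, and no reason for their low values was tested.

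Blood-cell forms of the pathway, also picked out by their values, were present at low levels. RAC2, the RAC GTPase of leukocytes, measured 1.57 and 1.35 FPKM in shCON and 0.592 and 0.449 FPKM in shFAM49B, on 67, 63, 23 and 17 reads, and its groups do not overlap. VAV1, an exchange factor known from leukocytes, measured 3.15 and 3.17 FPKM in shCON and 2.41 and 2.76 FPKM in shFAM49B and did not pass (log2 -0.22, limma adjusted p = 0.122). HCLS1, the leukocyte relative of cortactin, measured 0.314 and 0.467 FPKM in shCON, and 0.0896 FPKM and 0 in the shFAM49B libraries.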
